A study of Homo sapiens with 6 samples.

Results

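Membrane traffic between the endoplasmic reticulum, the Golgi, endosomes, lysosomes and the plasma membrane depends on SNARE proteins, which sit on vesicles and on their target membranes and zip together to fuse them. Vacuolar protein sorting (VPS) proteins build the complexes that sort cargo at endosomes. Among these, retromer and retriever return receptors from endosomes, ESCRT takes receptors into the vesicles of multivesicular bodies for degradation, and HOPS, CORVET and GARP tether membranes before SNAREs fuse them. Sorting nexins (SNX) bind endosomal lipids through a PX domain, and several of them work with retromer.

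The genes described here are those whose platform annotation symbol begins with STX and a digit, VAMP, SNAP23, SNAP25, SNAP29, SNAP47, STXBP, VTI1, GOSR, BET1, VPS and a digit, or SNX and a digit. This rule found 89 of 9586 named genes on the arrays, measured by 148 of 16569 probesets, and the probeset with the highest mean over the 6 arrays stood for each gene. They comprised 27 SNAREs, 5 syntaxin-binding proteins, 34 VPS genes and 23 sorting nexins. *SNX8* had only probesets shared with another gene and was not used.

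The arrays were hybridized with total RNA of HEK293T cells, a line from human embryonic kidney with the large T antigen of SV40, collected 48 hours after transient transfection. In the USF1 group (3 arrays) the cells received a plasmid with the *USF1* coding region behind a polyhistidine tag, and in the Empty vector group (3 arrays) the plasmid without it. USF1 is a transcription factor of the basic helix-loop-helix family and binds the E-box CACGTG, and HEK293T cells also make their own USF1 protein. Both groups share the cell line, the vector and the transfection, and nothing in the labels tells separate cultures from repeats of one culture, so the p-values rest on a spread between arrays that can be a technical one.

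Expression is given as RMA values in log2 units, in which a difference of 1 is a 2-fold change. Each difference is USF1 minus Empty vector, and a gene is said to have risen or fallen where limma gave an adjusted p-value under 0.05 over all 16569 probesets. The medians of the arrays lay between 5.88 and 6.0, and the Empty vector medians (5.96 to 6.0) were all above the USF1 medians (5.88 to 5.96). Empty vector replicate 1 stood apart from its group, with an SD of differences of 0.336 from either of the other Empty vector arrays, against 0.182 between those. Its 5′ minus 3′ difference of the actin control was -1.34 (-1.04 and -0.52 in the other Empty vector arrays, -0.68 to -0.49 in the USF1 arrays). The values without this array are given where it decides the sign or the call of a member. The *USF1* probeset measured 4.79 ± 0.13 in the USF1 arrays and 4.86 ± 0.43 in the Empty vector arrays (SD, n = 3), a difference of -0.07 (SE = 0.19; adjusted p = 0.836), so it does not check the labels. Whether its probes lie in the coding region that the plasmid carries was not tested. Of 6 markers of HEK293T, 4 were measured, with differences of 0.03 for *NEFM*, 0.15 for *NEFL*, -0.10 for *LIN28B* and -0.39 for *INA*, which passed (adjusted p = 0.024), and no marker of blood, endothelium, fibroblasts or hepatocytes was among the probesets analysed here. In RNA of a whole culture, a change in fewer cells and a smaller change in every cell cannot be told apart.

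The E-box is shown in the promoters of members that hold it upstream of the start and that passed or had their arrays apart. Of these, only *STX6* and *VPS26C* passed, and members that passed without the motif are not shown. Promoter sequences were those of RefSeq (GRCh38.p14), from 250 bases before to 50 after a gene start, and the windows of 80 bases below lie upstream of the start and are written 5′ to 3′ on the gene's strand, with CACGTG in capitals. The motif is its own reverse complement, so 1 search covers both strands.

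*STX6*, chr1:181022973-181023052, strand -: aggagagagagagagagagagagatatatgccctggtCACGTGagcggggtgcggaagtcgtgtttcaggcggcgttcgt

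*VPS26C*, chr21:37267373-37267452, strand -: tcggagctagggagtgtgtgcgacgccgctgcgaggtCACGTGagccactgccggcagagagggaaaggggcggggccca

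*STX4*, chr16:31033259-31033338, strand +: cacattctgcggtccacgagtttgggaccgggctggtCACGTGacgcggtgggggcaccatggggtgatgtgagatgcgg

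*VPS11*, chr11:119067736-119067815, strand +: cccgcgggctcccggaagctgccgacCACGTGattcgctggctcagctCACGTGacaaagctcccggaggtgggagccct

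*STX18*, chr4:4542391-4542470, strand -: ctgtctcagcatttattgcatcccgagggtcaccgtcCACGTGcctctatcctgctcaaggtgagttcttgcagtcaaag

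*VPS36*, chr13:52450277-52450356, strand -: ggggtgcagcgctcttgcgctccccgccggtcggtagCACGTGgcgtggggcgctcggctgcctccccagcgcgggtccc

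Of the 89 members, 72 had a promoter entry, and 14 of these (19.4%) held CACGTG. The motif was in 13.4% of the 8067 measured genes with a promoter entry and in 7.26% of all 35116 promoters of this length. Among the 9 members that passed the test, 7 had an entry and 2 held the motif, *STX6*, which rose, and *VPS26C*, which fell. The motif began at -145 from the gene start in *STX6* and at -81 in *VPS26C*. It was in 6 of 25 SNARE genes and in 2 of 16 retromer and ESCRT genes with an entry. Of the members whose USF1 arrays were all above the Empty vector arrays 4 of 10 held it (*STX4*, *STX6*, *STX18* and *VPS11*), of those with all USF1 arrays below 3 of 20 (*VPS8*, *VPS26C* and *VPS36*), and of the rest 7 of 42. The motif share of all genes split in this way was not computed, so this split has no background beside it. Of the genes named in it, *STX4*, *STX18*, *VPS11*, *VPS8* and *VPS36* did not pass. These are counts of letters in a window, and no binding of USF1 to these promoters was measured here.

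In cells transfected with *USF1*, 2 SNARE genes rose, the trans-Golgi syntaxin *STX6* and the plasma membrane syntaxin *STX1A*. The late endosomal SNARE *STX8* and the trans-Golgi SNARE *VAMP4* fell, together with *VPS29* of retromer, *VPS26C* of retriever, the lipid transfer protein *VPS13B* and the sorting nexins *SNX11* and *SNX19*. These 9 of 89 members (10.1%) passed the test, against 14.1% of all genes. The 2 that rose compare with 5.18% of all genes and the 7 that fell with 8.89% of all genes, so the members passed no more often than the genes of the arrays at large. At an unadjusted p-value under 0.05, 31 members were counted (10 with higher and 21 with lower values in USF1), against 34.5% of all genes. None of the 9 calls held without each of the 6 arrays in turn. The number of members called was 0 without USF1 replicate 1 (23 at an unadjusted p under 0.05) and 0 without USF1 replicate 3 (22), 2 without Empty vector replicate 2, 2 without Empty vector replicate 3, 8 without USF1 replicate 2 and 10 without Empty vector replicate 1.

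*STX6*, a syntaxin of the trans-Golgi network and early endosomes, measured 6.33, 6.37 and 6.21 in the USF1 arrays and 5.91, 5.99 and 5.72 in the Empty vector arrays. All 3 USF1 arrays were above all Empty vector arrays, and the difference was 0.43 (SE = 0.10; 1.35-fold; adjusted p = 0.0305). Its dimmer probeset, at 4.22, 4.46 and 4.24 against 3.70, 4.05 and 3.79, rose by 0.46 (SE = 0.12; adjusted p = 0.0403). Of the members with several probesets, *STX6* alone had all of them past the threshold. *STX1A*, best known as the syntaxin of neuronal exocytosis at the plasma membrane, measured 4.996, 5.16 and 4.96 with USF1 and 4.60, 4.60 and 4.72 with Empty vector. The groups did not overlap and *STX1A* rose by 0.40 (SE = 0.09; 1.32-fold; adjusted p = 0.0298). The *STX6* call and the *STX1A* call each held without only 1 of the 6 arrays, Empty vector replicate 1.

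*STX8*, a SNARE of late endosomes that acts with STX7 and VTI1B, measured 6.85, 6.86 and 6.80 in the USF1 arrays and 7.64, 7.30 and 7.28 in the Empty vector arrays. The USF1 arrays lay close together below the Empty vector arrays, of which replicate 1 was the highest, and the difference was -0.57 (SE = 0.11; 0.671-fold; adjusted p = 0.0185). Without Empty vector replicate 1 it was still called, and its call held without 4 of the 6 arrays, the most among the 9 members, and was lost without USF1 replicate 1 and without USF1 replicate 3. *VAMP4*, the vesicle SNARE that pairs with STX6 and STX16 at the trans-Golgi network, measured 6.05, 6.14 and 5.96 with USF1 and 6.56, 6.42 and 6.47 with Empty vector. It fell by 0.43 on the log2 scale (SE = 0.09; 0.74-fold; adjusted p = 0.0217), with no overlap of the groups. Its other probesets differed by -0.11 and -0.40 and did not pass.

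*VPS29*, the small subunit of retromer that binds VPS35 and is shared with retriever, measured 8.32, 8.40 and 8.36 with USF1 and 8.89, 8.67 and 8.73 with Empty vector. Every USF1 array was below every Empty vector array, and *VPS29* fell by 0.40 (SE = 0.09; 0.758-fold; adjusted p = 0.0282). *VPS26C*, the retriever counterpart of VPS26, measured 5.79, 5.83 and 5.81 against 6.32, 6.05 and 6.22. It fell by 0.39 (SE = 0.09; 0.763-fold; adjusted p = 0.034) at this probeset. The other *VPS26C* probeset (4.63, 4.41 and 4.51 against 4.45, 4.54 and 4.90) overlapped between the groups and did not pass, and without Empty vector replicate 1 the call was lost (-0.33; adjusted p = 0.0548).

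*VPS13B* encodes the Golgi member of the large VPS13 proteins, which carry lipids between membranes. It measured 4.95, 4.89 and 4.90 with USF1 and 5.30, 5.36 and 5.18 with Empty vector, and fell by 0.37 (SE = 0.09; 0.776-fold; adjusted p = 0.031). *SNX11*, a sorting nexin of endosomes, measured 5.51, 5.81 and 5.30 against 6.24, 6.08 and 6.03. USF1 replicate 2 was the closest of its group to the Empty vector arrays, and *SNX11* fell by 0.58 (SE = 0.13; 0.671-fold; adjusted p = 0.0308). *SNX19*, grouped here with the RGS sorting nexins, measured 4.12, 4.14 and 3.91 against 4.54, 4.44 and 4.45 and fell by 0.42 (SE = 0.10; 0.748-fold; adjusted p = 0.0281). In both sorting nexins the groups lay apart.

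**Figure D1:**
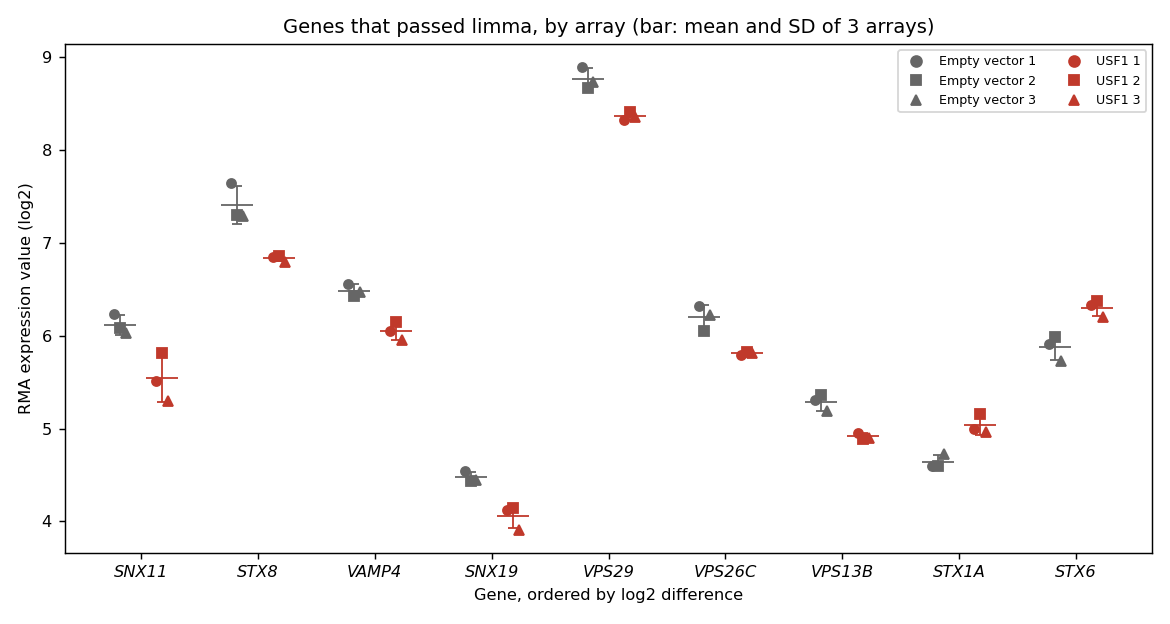
Log2 RMA expression values of the 9 members that passed limma, by array, with grey symbols for Empty vector and red symbols for USF1, symbol shapes for replicate numbers and bars for the mean and SD of 3 arrays. In each gene the groups lie apart, with *STX1A* and *STX6* higher and the other 7 lower in the USF1 arrays.

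Over all 89 members the median difference was -0.11 (-0.08 over all genes), and 62 members (69.7%) had a negative difference, as did 63.4% of all genes. The USF1 arrays were all above the Empty vector arrays in 11 members, against 12.6% of all genes, and all below in 29 members, against 27.5% of all genes. The remaining 49 overlapped. After each array was centred on its own median, 7 members passed as higher and 6 as lower (53.8% higher, against 22.2% in the uncentred values). Over all probesets the share of calls that were higher went from 36.2% to 56.1% in the same step. Centring moved the median of all genes from -0.08 to -0.01, and the direction in which most calls lay, among members as among all probesets, depends on the scaling. The probesets of the members ranged widely in brightness, which depends on the probes as well as on the RNA. The dimmest means belonged to *STXBP6* (3.84), *VPS13A* (4.02) and *STXBP5* (4.05), and the brightest to *VPS26A* (8.84), *VPS35* (9.05) and *SNX3* (9.16), none of which passed.

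SNAREs had differences of both signs, and those of the retromer and ESCRT genes were mostly negative, as were those of all genes. Of the 27 SNAREs 2 rose and 2 fell, and of the 20 retromer and ESCRT genes (the 4 core subunits, 7 sorting nexins that work with retromer and 9 ESCRT genes) *VPS29* passed and 19 did not, which makes 14.8% and 5% called, against 14.1% of all genes. Negative differences were 59.3% of the SNAREs, 75% of the retromer and ESCRT genes and 63.4% of all genes. The median difference was -0.01 for SNAREs and -0.14 for retromer and ESCRT genes, on either side of the -0.08 of all genes. The USF1 arrays were all above the Empty vector arrays in 6 of 27 SNAREs and all below in 4, and all above in 1 of 20 retromer and ESCRT genes (*VPS26A*) and all below in 8, beside 12.6% above and 27.5% below of all genes. The median level of the 27 SNAREs was 6.62, 6.56 and 6.47 in the USF1 arrays and 6.61, 6.58 and 6.62 in the Empty vector arrays, so the groups overlapped. The median level of the 20 retromer and ESCRT genes was 7.01, 6.82 and 6.91 with USF1 and 7.16, 7.07 and 6.98 with Empty vector, which also overlapped. The SNARE median was positive under centring (0.06), a further quantile normalization (0.04), array weights (0.01), the mean of all probesets of a gene (0.01), and without USF1 replicate 2 (0.0014) or USF1 replicate 3 (0.00082). The retromer and ESCRT median was negative under every alternative run, between -0.17 and -0.07. The genes of a class share samples and are no replicates, so no test was made of this difference.

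**Figure D2:**
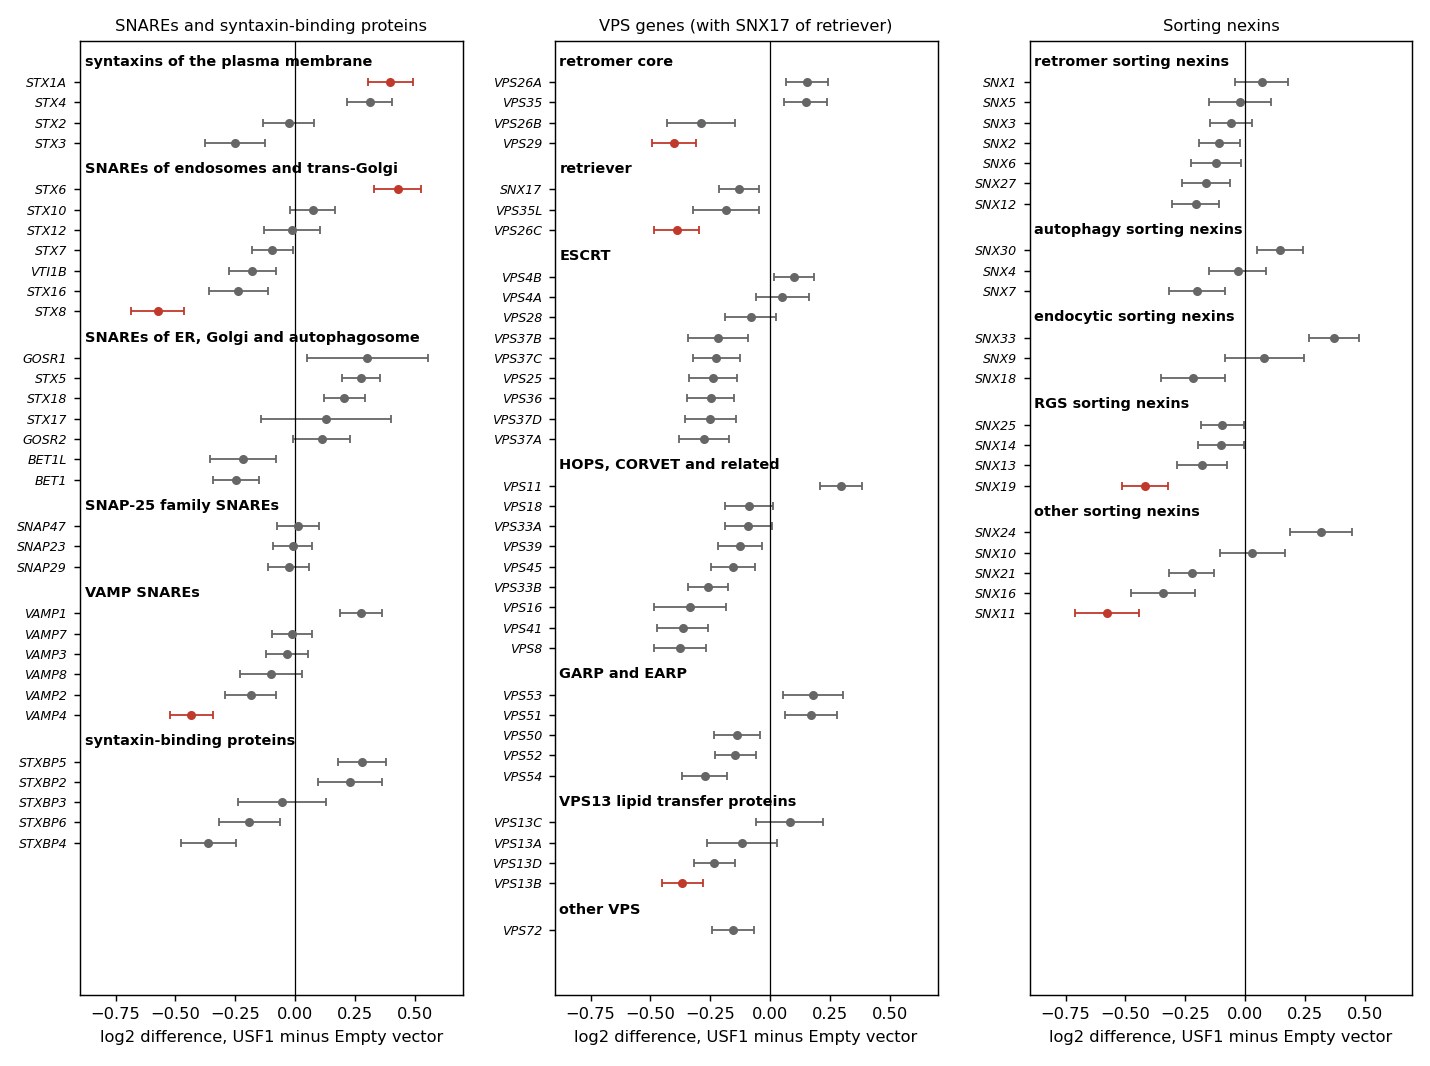
Log2 difference (USF1 minus Empty vector) of all 89 members by class, with points for the probeset that stands for the gene, bars for the standard error of the limma fit and red for members that passed. Below 0 lie 16 of the 27 SNAREs, 26 of the 34 VPS genes and 17 of the 23 sorting nexins, beside 63.4% of all genes.

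Among the SNAREs of endosomes and the trans-Golgi network, members that act in the same complexes had unlike differences. The late endosomal complex of STX7, STX8, VTI1B and VAMP8 had *STX8* at -0.57, while *STX7* (-0.09), *VTI1B* (-0.18) and *VAMP8* (-0.10) did not pass. All 3 *VTI1B* probesets were negative, and the largest difference of them was -0.38 (SE = 0.11; adjusted p = 0.0534). *VAMP7*, the vesicle SNARE that can take the place of VAMP8 at lysosomes, measured 8.22, 8.25 and 8.19 with USF1 and 8.15, 8.32 and 8.23 with Empty vector, a difference of -0.01. In the trans-Golgi complex, *STX6* rose, *VAMP4* fell, and *STX16* (6.62, 6.95 and 6.59 against 6.96, 7.09 and 6.82) overlapped between the groups. *STX10*, a relative of STX6, differed by 0.07 and *STX12*, of recycling endosomes, by -0.01.

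The log2 value of *STX6* minus that of *STX8* within an array was -0.52, -0.49 and -0.59 with USF1 and -1.74, -1.31 and -1.56 with Empty vector. The difference between the groups was 1.00. For *STX6* minus *VAMP4* the group means were 0.25 ± 0.02 and -0.61 ± 0.16 (SD, n = 3), a difference of 0.86. These pairs were chosen after their values were seen, for differences of opposite sign, so the ratios are a description.

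Syntaxins of the plasma membrane other than *STX1A* did not pass. *STX4*, the widely expressed syntaxin of the plasma membrane, measured 6.58, 6.49 and 6.49 with USF1 and 6.35, 6.12 and 6.16 with Empty vector, with the groups apart by 0.31 (SE = 0.09; adjusted p = 0.064). Its dimmer probeset overlapped, at a difference of 0.02. Without Empty vector replicate 1 the brighter *STX4* probeset differed by 0.38 and passed. *STX2* differed by -0.03 and *STX3*, an apical syntaxin of epithelia, by -0.25. Their partners of the SNAP-25 family differed at the brightest probeset by -0.01 (*SNAP23*), -0.03 (*SNAP29*) and 0.01 (*SNAP47*), with 95% confidence intervals that ran from -0.22 at the lowest to 0.21 at the highest. The dimmer *SNAP23* probesets differed by 0.11 and 0.36 (adjusted p = 0.0741 for the latter) and did not pass.

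Of the vesicle SNAREs (VAMP), *VAMP2* and *VAMP3*, which serve exocytosis and recycling, differed by -0.19 and -0.03. All 3 *VAMP2* probesets were negative (-0.19, -0.34 and -0.56), and none passed. *VAMP1* measured 4.30, 4.26 and 4.29 with USF1 and 4.07, 4.06 and 3.89 with Empty vector, a difference of 0.28 (adjusted p = 0.0723), with the groups apart.

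Of the 7 SNAREs of the endoplasmic reticulum, Golgi and autophagosomes, 5 had positive differences and none passed. Without Empty vector replicate 1 the positive differences were 3 of 7 (*GOSR2*, *STX5* and *STX18*), since *GOSR1* and *STX17* turned negative. *STX5*, the central syntaxin of endoplasmic reticulum to Golgi transport, measured 5.73, 5.82 and 5.83 with USF1 and 5.50, 5.51 and 5.54 with Empty vector. Both groups were tight and lay apart by 0.28 (SE = 0.08; adjusted p = 0.0589). *STX18*, which acts in retrograde transport to the endoplasmic reticulum, measured 7.15, 7.15 and 7.003 against 6.95, 6.87 and 6.85 (0.21; adjusted p = 0.146). *BET1*, a partner of STX5, went the other way, with 6.77, 6.88 and 6.64 against 7.06, 7.04 and 6.92 (-0.25; adjusted p = 0.12). *BET1L* differed by -0.22 and *GOSR2* by 0.11. Other probesets of these genes went both ways. The 6 *GOSR2* probesets ranged from -0.39 to 0.14, and the dimmer *BET1L* probeset differed by 0.10. The dimmer *STX17* probesets were all negative, from -0.19 to -0.09.

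The retromer core had unlike differences among its subunits. *VPS35*, the scaffold of retromer, measured 9.21, 9.04 and 9.11 with USF1 and 9.07, 8.92 and 8.94 with Empty vector, a difference of 0.15 (SE = 0.09; adjusted p = 0.299). Its 3 other probesets differed by 0.27, 0.21 and 0.45. The dimmest of them, at 7.24, 7.19 and 7.21 against 6.60, 6.74 and 6.95, passed (adjusted p = 0.0295), and the mean of the 4 probesets differed by 0.27 (adjusted p = 0.0445). *VPS26A*, which docks on VPS35, measured 8.97, 8.86 and 8.91 with USF1 and 8.86, 8.70 and 8.72 with Empty vector, a difference of 0.15 (adjusted p = 0.265), and the lowest USF1 array barely cleared the highest Empty vector array. *VPS26B*, its paralogue, measured 5.51, 5.41 and 5.23 against 5.89, 5.75 and 5.37, a difference of -0.29 (adjusted p = 0.207), and its other probeset differed by -0.14.

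Within an array, *VPS35* minus *VPS29* was 0.89, 0.64 and 0.75 with USF1 and 0.18, 0.25 and 0.21 with Empty vector. The means were 0.76 ± 0.13 and 0.21 ± 0.04 (SD, n = 3), and the difference was 0.55. *VPS26A* minus *VPS29* gave means of 0.55 and -0.0036, with a difference of 0.55. These pairs too were chosen after their values were seen, for subunits with unlike differences, so the ratios describe these arrays and test nothing further.

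**Figure D3:**
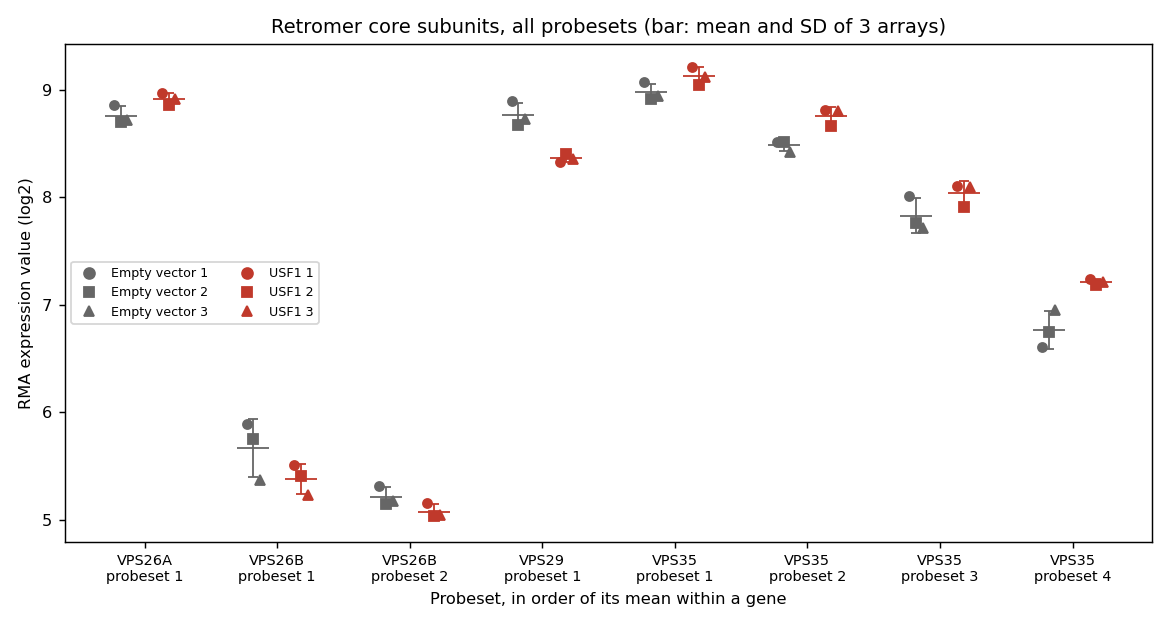
Log2 RMA expression values of every probeset of the 4 retromer core genes, by array, with grey symbols for Empty vector, red symbols for USF1 and bars for the mean and SD of 3 arrays. The USF1 mean is lower for *VPS29* (8.36 against 8.76) and both *VPS26B* probesets, and higher for *VPS26A* and all 4 *VPS35* probesets.

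The 7 sorting nexins that act with retromer did not pass, and 6 of them had negative differences, beside 63.4% of all genes. *SNX12* (-0.21) and *SNX2* (-0.11) had all USF1 arrays below the Empty vector arrays. *SNX1* (0.07), *SNX3* (-0.06), *SNX5* (-0.02), *SNX6* (-0.12) and *SNX27* (-0.16) overlapped. In retriever, which acts on cargo brought by SNX17, *VPS35L* (-0.19) and *SNX17* (-0.13) did not pass beside *VPS26C*.

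None of the 9 ESCRT genes passed, against 14.1% of all genes. Negative differences were found in 7 of them, beside 63.4% of all genes. The USF1 arrays were all below the Empty vector arrays in 5, beside 27.5% of all genes. Of ESCRT-II, *VPS25* measured 8.13, 8.24 and 7.96 with USF1 and 8.34, 8.28 and 8.42 with Empty vector, and *VPS36* measured 6.78, 6.75 and 6.67 against 7.01, 7.10 and 6.83. In both the groups lay apart, at differences of -0.24 (adjusted p = 0.144) and -0.25 (adjusted p = 0.125). The 4 genes for the VPS37 subunit of ESCRT-I were *VPS37A* (-0.28), *VPS37B* (-0.22), *VPS37C* (-0.22) and *VPS37D* (-0.25), with the groups apart in all but *VPS37B* and adjusted p-values from 0.113 to 0.278. *VPS37A* measured 5.16, 5.48 and 5.24 against 5.63, 5.58 and 5.51. *VPS28*, the other ESCRT-I member on the list, differed by -0.08. The ATPases that take ESCRT filaments apart, *VPS4A* and *VPS4B*, differed by 0.05 and 0.10 and overlapped between the groups.

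HOPS and CORVET tether late and early endosomes before fusion and share a core. Of 9 genes of these complexes and their relatives 8 had negative differences, beside 63.4% of all genes. None of them passed, against 14.1% of all genes. *VPS8*, a CORVET subunit that HOPS lacks, measured 4.98, 5.07 and 4.70 with USF1 and 5.29, 5.30 and 5.28 with Empty vector, at -0.38 (SE = 0.11; adjusted p = 0.0559). *VPS41*, its counterpart in HOPS, measured 5.97, 5.71 and 5.80 against 6.30, 6.21 and 6.06, at -0.37 (SE = 0.11; adjusted p = 0.0565). Both lay just outside the threshold, and so did *VPS11* of the shared core in the other direction. *VPS11* measured 5.52, 5.55 and 5.50 against 5.34, 5.13 and 5.22, a difference of 0.30 (SE = 0.09; adjusted p = 0.0616). Without Empty vector replicate 1 the difference was 0.35 and *VPS11* passed. *VPS16* and *VPS18* of the same core differed by -0.34 and -0.09 and overlapped.

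The 5 genes of GARP and EARP, which tether endosome-derived vesicles, were spread around 0, from *VPS54* (-0.27) to *VPS53* (0.18). All 3 *VPS54* probesets were negative (-0.27, -0.32 and -0.21). Of the VPS13 genes, *VPS13D* had the groups apart at -0.23 (adjusted p = 0.107), and *VPS13A* (-0.12) and *VPS13C* (0.08) overlapped. *VPS72*, whose symbol brings it under the rule although its product belongs to a chromatin remodelling complex, differed by -0.16.

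Among the other sorting nexins, *SNX33*, which acts in endocytosis with SNX9 and SNX18, had the largest positive difference of the members that did not pass with their arrays apart. It measured 5.02, 5.17 and 4.83 with USF1 and 4.66, 4.68 and 4.56 with Empty vector, a difference of 0.37 (SE = 0.10; adjusted p = 0.0537). *SNX24* measured 5.16, 4.89 and 4.88 against 4.81, 4.74 and 4.43 (0.32; adjusted p = 0.136). *SNX16*, of endosomes, measured 4.35, 4.66 and 4.12 against 4.75, 4.73 and 4.67, at -0.34 (adjusted p = 0.121), with a wide spread of the USF1 arrays. The RGS sorting nexins *SNX13*, *SNX14* and *SNX25* differed by -0.18, -0.10 and -0.09, all in the direction of *SNX19*. The autophagy sorting nexins *SNX4* (-0.03), *SNX7* (-0.20) and *SNX30* (0.15) overlapped.

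Syntaxin-binding proteins hold or release syntaxins, and none of the 5 measured passed. *STXBP4* measured 4.46, 4.31 and 4.08 with USF1 and 4.57, 4.64 and 4.73 with Empty vector, at -0.36 (SE = 0.11; adjusted p = 0.0707). *STXBP5*, which encodes tomosyn, an inhibitor of SNARE assembly, measured 4.13, 4.34 and 4.08 against 3.98, 3.91 and 3.82, at 0.28 (adjusted p = 0.0969). The groups were apart in both. *STXBP2* (0.23), *STXBP3* (-0.05) and *STXBP6* (-0.19) overlapped.

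Of the 89 members 35 had several probesets, and in 18 of these the probesets differed in sign. The members with differing signs were *BET1L*, *GOSR1*, *GOSR2*, *SNAP23*, *SNX1*, *SNX2*, *SNX4*, *SNX5*, *SNX9*, *SNX12*, *SNX13*, *SNX27*, *STX2*, *STX3*, *STX12*, *STX16*, *STX17* and *VAMP3*, none of which passed at any probeset. The widest range was that of *STX16*, from -0.24 to 0.31, followed by that of *GOSR2* with 6 probesets, from -0.39 to 0.14. Of all 148 member probesets 4 were called up and 7 down, against 11.9% of all probesets called in either direction. The call and the lack of one stood side by side in *VAMP4*, *VPS26C* and *VPS35*, and no gene had calls of opposite sign.

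In 7 member probesets (4.73%; 5.20% of all probesets) Empty vector replicate 1 was more than 0.5 below the mean of the other Empty vector arrays. The largest gap was that of a *STX16* probeset, which measured 3.12 in Empty vector replicate 1, 4.64 and 4.86 in the other Empty vector arrays and 4.60, 4.58 and 4.38 in the USF1 arrays. The autophagosomal SNARE *STX17* measured 4.53, 5.81 and 5.45 in the Empty vector arrays and 5.46, 5.29 and 5.43 in the USF1 arrays. The Golgi SNARE *GOSR1* measured 5.54, 6.51 and 6.52 against 6.68, 6.56 and 6.25, and its 2 other probesets, in which replicate 1 was not low, differed by 0.04 and -0.02. Without Empty vector replicate 1, the difference of this *GOSR1* probeset went from 0.30 to -0.02, that of *STX17* from 0.13 to -0.24, that of *SNX9* from 0.08 to -0.12, and that of the *SNX27* probeset from 0.27 to -0.19. The 2 *STX16* probesets went from 0.31 to -0.23 and from 0.07 to -0.28, so these positive differences rest on 1 array. Where Empty vector replicate 1 was the highest of its group, leaving it out made negative differences smaller, from -0.34 to -0.20 in *VPS16*, from -0.29 to -0.18 in *VPS26B*, from -0.22 to -0.10 in *BET1L*, from -0.21 to -0.13 in *SNX12*, from -0.20 to -0.10 in *SNX7*, from -0.19 to -0.09 in *VPS35L* and from -0.19 to -0.08 in *VAMP2*, whose dimmest probeset went from -0.56 to -0.35. Over all members, 6 turned in sign without this array (*GOSR1*, *SNAP23*, *SNAP29*, *SNX9*, *STX17* and *VAMP3*) and 16 shrank by over 1.5 times, none of which had passed. Among these, *SNAP23*, *SNAP29* and *VAMP3* were each at 0.02 without it. In all 7 probesets the USF1 arrays lay above Empty vector replicate 1, and the part of the RNA quality that the actin control measures in these values was not tested.

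**Figure D4:**
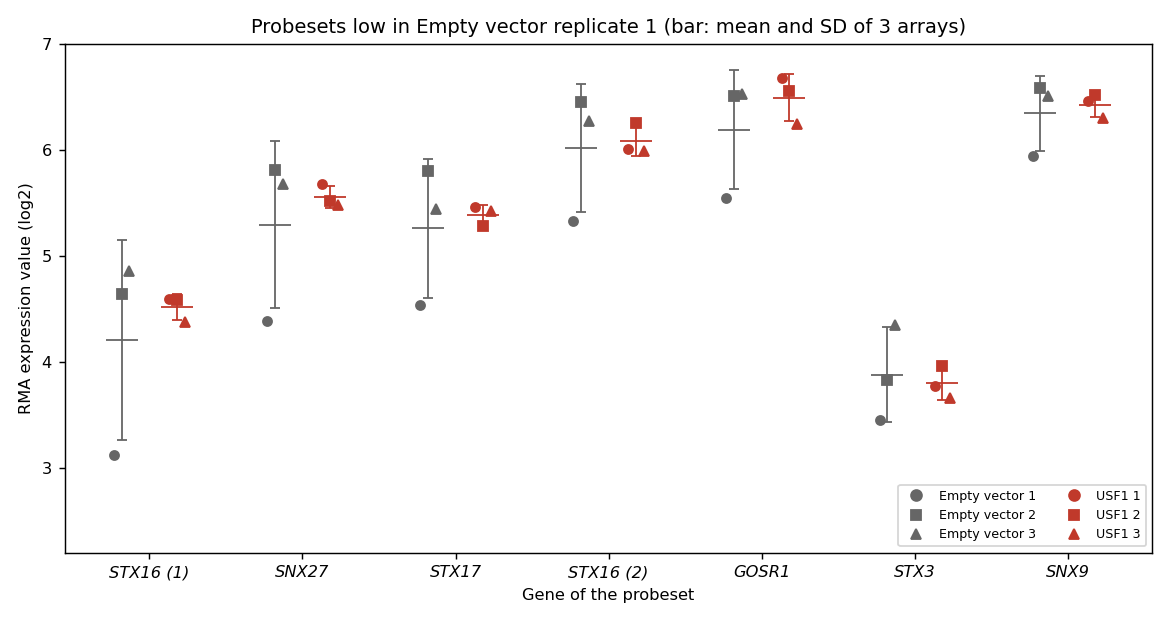
Log2 RMA expression values of the 7 member probesets in which Empty vector replicate 1 (grey circles) was more than 0.5 below the mean of the other Empty vector arrays, with red symbols for USF1 and bars for the mean and SD of 3 arrays. In each the grey circle lies below all other arrays, by the widest gap in *STX16* (3.12 against 4.38 or more).

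Genes that work with these proteins but have other names were described from lists of the same pathways. Over all genes, 14.1% passed (5.18% rose and 8.89% fell) and the median difference was -0.08, and the lists are given beside these values. Of 11 measured genes that drive or complete SNARE complexes, only *NAPA* passed (9.09%). *NAPA* encodes alpha-SNAP, the adaptor through which the ATPase NSF takes SNARE complexes apart, and it measured 6.64, 6.40 and 6.67 with USF1 and 5.83, 5.89 and 6.05 with Empty vector. It rose by 0.65 (SE = 0.11; 1.57-fold; adjusted p = 0.0106), while *NSF* (-0.11) and the other SNAP genes *NAPB* (-0.24) and *NAPG* (-0.09) did not pass. The *NAPA* call was lost without USF1 replicate 1 and without USF1 replicate 3.

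Of 19 measured ESCRT genes with other symbols 2 rose (10.5%), none fell and the median was -0.01. *HGS*, the ESCRT-0 subunit that gathers ubiquitinated cargo, measured 7.05, 6.79 and 6.95 against 6.46, 6.40 and 6.46 and rose by 0.49 (SE = 0.09; adjusted p = 0.0175). *CHMP5*, of ESCRT-III, measured 8.76, 8.85 and 8.90 against 8.38, 8.39 and 8.38 and rose by 0.45 (SE = 0.08; adjusted p = 0.0148). The *HGS* call held without 3 of the 6 arrays and the *CHMP5* call without 4. Of the 19 genes 11 had negative differences, and *STAM2* (-0.35; adjusted p = 0.0659), *PTPN23* (-0.37; adjusted p = 0.0908) and *MVB12B* (-0.29; adjusted p = 0.128) had all USF1 arrays below the Empty vector arrays without passing.

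The WASH complex builds actin on endosomes beside retromer, and the COMMD proteins act with retriever. Of 17 of their genes 1 rose and 2 fell (17.6% called, against 14.1% of all genes). *WASHC3*, a WASH subunit, measured 6.29, 6.31 and 6.21 with USF1 and 7.37, 7.27 and 7.22 with Empty vector. It fell by 1.01 (SE = 0.09; 0.495-fold; adjusted p = 0.00096), further than any member, and was called without each of the 6 arrays in turn. *COMMD8* fell by 0.34 (adjusted p = 0.0471) and *COMMD1* rose by 0.38 (adjusted p = 0.0436), and the median of the list was -0.18. The *COMMD8* call was lost without any 1 of the 6 arrays, and the *COMMD1* call held without 1 of them, Empty vector replicate 1.

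Of 29 genes of the COG, exocyst and TRAPP tethers 1 rose and 4 fell (17.2% called, against 14.1% of all genes), with a median of -0.19 (-0.08 over all genes). *COG1*, of the Golgi tether COG, measured 6.96, 7.12 and 6.86 against 7.50, 7.44 and 7.34 and fell by 0.45 (adjusted p = 0.0249). The exocyst genes *EXOC6B* (-0.49; adjusted p = 0.0276) and *EXOC4* (-0.43; adjusted p = 0.0474) and the TRAPP gene *TRAPPC2* (-0.32; adjusted p = 0.0408) fell, and *TRAPPC2L* rose (0.40; adjusted p = 0.0388). The *TRAPPC2* call was lost without any 1 of the 6 arrays, and those of *COG1*, *EXOC6B* and *TRAPPC2L* held without 3, 2 and 2 of them. *EXOC4* was named to complete the count, after its values were seen.

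Of 27 clathrin and adaptor genes *AP3M2*, a medium chain of the adaptor AP-3, fell (5.80, 5.69 and 5.65 against 6.29, 6.22 and 6.18; -0.52; adjusted p = 0.011) and *CLTCL1*, the second clathrin heavy chain, rose (0.40; adjusted p = 0.0228). The *AP3M2* call held without 5 of the 6 arrays and the *CLTCL1* call without 2. In this list 7.41% passed, and its median was -0.04. Of 6 genes for receptors and membrane proteins that these pathways sort, *LRP10* (0.72; adjusted p = 0.0102) and *IGF2R* (0.44; adjusted p = 0.0211) rose, and *SORL1* (-0.27), *CD63* (0.15), *M6PR* (0.08) and *TGOLN2* (0.03) did not pass. The 2 that rose are 33.3% of this short list. The *LRP10* call held without 5 of the 6 arrays and the *IGF2R* call without 2. IGF2R and M6PR are the mannose 6-phosphate receptors that carry lysosomal enzymes and that retromer and STX6 are known to return to the Golgi. Of 3 measured partners of STX1A in neuronal exocytosis none passed, with *SYT1* at -0.28 (adjusted p = 0.0825), *SV2A* at -0.03 and *RAB3A* at -0.05.

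**Figure D5:**
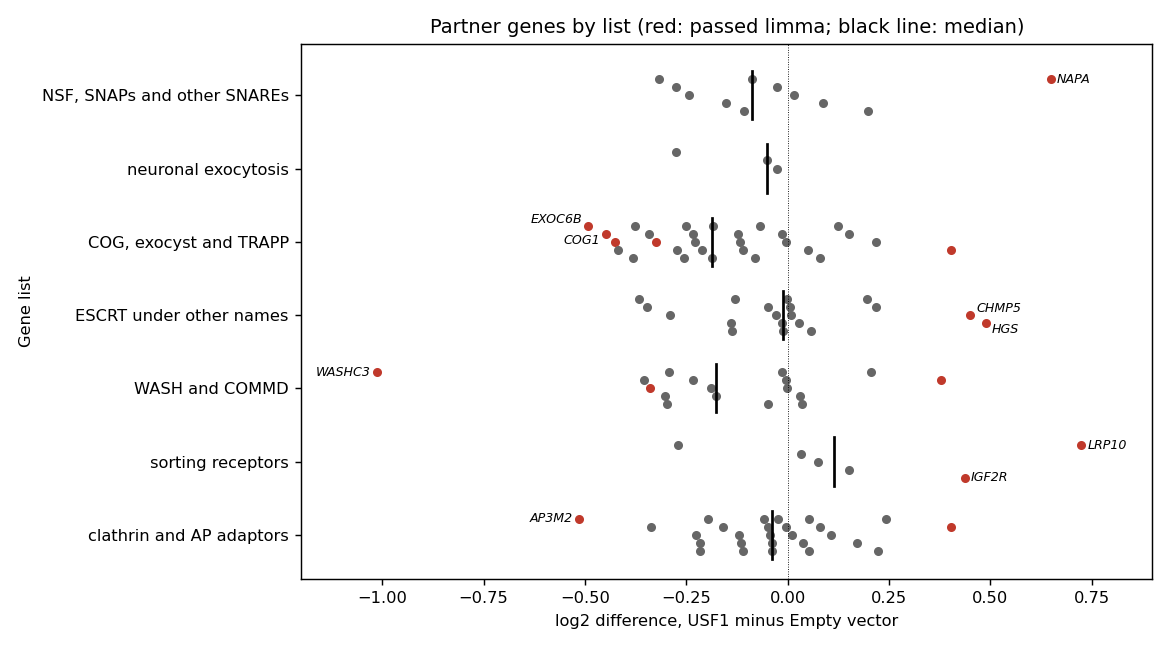
Log2 difference (USF1 minus Empty vector) of the genes of 7 related lists outside the symbol rule, with red points for genes that passed limma, grey points for the others and black lines for the median of each list. *WASHC3* lies lowest at -1.01 and *LRP10* highest at 0.72, and the medians range from -0.19 for the tethers to 0.11 for the sorting receptors.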

How the data were processed

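The deposited table holds log2 expression values made by RMA from Affymetrix U133 Plus 2.0 arrays. Per the methods and the labels, the authors imported the arrays with justRMA in R 2.8.0, with probe definitions that mask mis-targeted probes, left out probesets with few probes or mostly absent calls, and corrected batches with ComBat. The sources used here name no batches, so no within-batch value could be computed, and probesets that were filtered out are not analysed here. The number of arrays limits the precision.

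Groups came from the array titles. From these values the difference of USF1 minus Empty vector was estimated with lmFit and eBayes of limma 3.58.1 in R 4.3.3 over 16569 probesets (prior degrees of freedom 4.53), with Benjamini-Hochberg adjustment. The platform annotation gave 1 gene for 15099 probesets, several for 570 and none for 900, and only the first were named. Medians and counts of lists and ratios within an array are descriptions. Tested on simulated data of this comparison (16569 probesets), limma recovered 48 of 100 probesets with a log2 change of 0.5 and 100 of 100 with a change of 1, with 5 false calls. The simulated noise was normal and independent, with the fitted spread of each probeset and no array effects. Its false calls therefore do not measure errors from an outlying array or from shifted array medians.

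The members and the lists were chosen with earlier results of these data known. The rule for named genes took all members that passed, the 5 largest rises and 5 largest falls among the others with arrays apart, the retromer core and ESCRT genes, members whose probesets disagree, the 3 brightest and 3 dimmest members, up to 4 genes that passed from each list outside the symbol rule, and *USF1*. Other members and genes of lists were named by class, after their values were seen. Alternatives were the methods' t-test with unequal and equal variances, a trended or robust prior, array weights, centring, a further quantile normalization, leaving out the dimmest 25% of probesets, the mean of all probesets of a gene, a block on replicate numbers and each array left out in turn.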

Additional observations from a re-analysis of the deposited data

How the results depend on the processing

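Arrays left out 1 at a time gave between 369 and 2222 probesets called (1974 with all arrays), between 0 and 4 members called up (2) and between 0 and 8 called down (7). The methods' t-test with unequal variances called 3419 probesets at its unadjusted threshold, with 8 members up and 12 down, and 1 probeset and 0 members after Benjamini-Hochberg adjustment (20 members at an unadjusted p under 0.05). With equal variances it called 4265 probesets, with 9 members up and 17 down, and 160 probesets and 0 members after adjustment (26 members at an unadjusted p under 0.05). Array weights called 3688 probesets and 8 members up. Centring called 7 members up, a further quantile normalization 6 and the mean of all probesets of a gene 7. The replicate numbers were treated as names only, and the labels do not say whether they mark pairs. The deviations of same-numbered arrays correlated at 0.096, 0.246 and 0.129, and each array correlated best with its own number. Whether the numbers mark pairs or a shared batch was not tested. The fit with the replicate block called 2875 probesets and 4 members up and 10 down. These held all 9 members of the main fit, with *STX4* and *SNX33* added as higher and *VPS8*, *VPS16* and *VPS41* as lower. Changes of sign were looked for only in the genes that the rule for named genes took. Other members that turned, such as *SNAP29* without Empty vector replicate 1, are not in the lists that follow. Some differences changed sign, in each case of genes that had not passed, and the cause was not tested. Array weights turned *SNAP23* (0.0094), *SNX5* (0.060), *SNX9* (-0.054), *STX12* (0.065), *STX17* (-0.067), *VAMP3* (0.0079) and *VPS28* (0.0061). Centring turned *SNAP23* (0.059), *SNX3* (0.0098), *SNX4* (0.038), *SNX5* (0.048), *STX12* (0.056), *STX2* (0.041) and *VAMP3* (0.035). A further quantile normalization turned *SNAP23* (0.052), *SNX4* (0.034), *SNX5* (0.029), *STX12* (0.050), *STX2* (0.031) and *VAMP3* (0.021). The mean of all probesets turned *GOSR2* (-0.096), *SNAP23* (0.15), *SNX27* (0.052), *SNX9* (-0.051), *STX12* (0.046), *STX16* (0.047), *STX17* (-0.096), *STX2* (0.043) and *VAMP3* (0.021). Among the genes that this rule took, arrays left out 1 at a time turned the sign of 14. Their ranges were *GOSR1* -0.023 to 0.47, *GOSR2* -0.010 to 0.20, *SNAP23* -0.046 to 0.017, *SNX1* -0.0073 to 0.15, *SNX4* -0.13 to 0.086, *SNX5* -0.10 to 0.13, *SNX9* -0.12 to 0.20, *STX12* -0.088 to 0.11, *STX17* -0.24 to 0.40, *STX2* -0.10 to 0.047, *USF1* -0.32 to 0.070, *VAMP3* -0.068 to 0.025, *VPS13A* -0.21 to 0.057 and *VPS4A* -0.016 to 0.14. Of the remaining values of named genes 950 kept their direction and their side of the threshold, 43 newly passed and all others no longer passed, most of them among those with an array left out or under the adjusted t-tests. Without Empty vector replicate 1, the differences of all members turned in sign in 6, shrank by over 1.5 times in 16 and grew by over 1.5 times in 10, and none of these members had passed.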
